A study of Mus musculus with 44 samples.

Results

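The cytosolic ribosomal protein genes encode the proteins of the large (60S) and small (40S) subunits of the ribosome. They were taken as every row of the deposited table whose symbol begins with Rpl or Rps and a digit, with Rplp0, Rplp1, Rplp2 and Rpsa. The ribosomal protein kinases and other symbols that only share these letters, of which the table held 10, were left out. This gave 80 of the 8203 genes, 47 of the 60S and 33 of the 40S subunit.

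Each ribosome carries a single copy of nearly every ribosomal protein, and the genes are transcribed and translated in concert. Their mRNAs begin with a 5' terminal oligopyrimidine (TOP) tract, a run of C and T bases at the start of transcription, through which mTORC1 and the RNA-binding protein LARP1 control translation. In neurons these mRNAs are also found in dendrites and axons, and their loading onto ribosomes follows growth factor signals and activity. Here RNA was pulled down through a tagged ribosomal protein, L10a, the product of Rpl10a.

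The study aimed at Crh neurons of the central amygdala (CeA). RNA was sequenced from tissue punches centred on the amygdala of 44 adult Crh-TRAP mice of both sexes. All were first-generation progeny carrying one copy each of a Crh-Cre transgene and a Cre-dependent eGFP-L10a allele at Rosa26, so Crh-promoter activity, also past activity in the same cells, decided which cells carried the tag. All mice were habituated to the chamber, and each sample was an individual mouse. The 16 TA mice (10 males, 6 females) heard tones alone, the 12 FC mice (6 males, 6 females) received tone-shock pairings, and the 16 EXT mice (10 males, 6 females) were conditioned in the same way and underwent fear extinction, tones without shock in a new context, the next day. TA and FC mice were sacrificed on the training day and EXT mice on the following day, so extinction and the extra day cannot be told apart. The labels number the batches from 1 to 5 without saying what a batch was. Batch 1 held 4 TA, 5 FC and 2 EXT mice, batch 2 held 5, 2 and 3, and batch 5 held 7, 5 and 5, while the 5 mice of batch 3 and the 1 mouse of batch 4 were all EXT. Mice are named here by animal number.

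RefSeq promoter sequences (GRCm38.p6) were matched for 59 of the 80 genes. The letters CTTTC, a short pyrimidine run, were searched for on the sense strand, which reads as the mRNA does. They stood between 50 bases before and 50 bases after the annotated start in 32 of these 59 genes (54.2%). The share was 12.2% of the 6393 genes of the table with a promoter sequence and 14.6% of all 27025 promoters. On either strand (CTTTC or GAAAG) the shares were 62.7%, 21.3% and 26.2%. The following 8 windows of 30 bases were chosen to show the motif at the start of genes described below, with the copy of CTTTC nearest the start in capitals.
Rplp2 at chr7:141447639-141447668, plus strand: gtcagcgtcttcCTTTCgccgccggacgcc
Rpl38 at chr11:114668568-114668597, plus strand: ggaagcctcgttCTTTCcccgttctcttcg
Rps27 at chr3:90213630-90213659, minus strand: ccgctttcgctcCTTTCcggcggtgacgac
Rpl28 at chr7:4792955-4792984, plus strand: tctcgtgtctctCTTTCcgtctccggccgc
Rpl7a at chr2:26910794-26910823, plus strand: tccctcttctttCTTTCtccagcagccgag
Rpl13a at chr7:45128719-45128748, minus strand: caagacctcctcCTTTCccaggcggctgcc
Rpl10a at chr17:28328574-28328603, plus strand: gcgctctgccttCTTTCcggtttccgcggc
Rpl36al at chr12:69184019-69184048, minus strand: ctctgttcgtccCTTTCctgttcggcgcgt
Counted from 1 at the annotated start, the motif began at base 1 in Rplp2 and Rpl38, at base 2 in Rps27 and at base 3 in Rpl28. It began at base 10 in Rpl13a, base 22 in Rpl10a and base 32 in Rpl36al. In Rpl7a it began at the base just before the start. The Rps27 and Rpl7a windows hold another CTTTC upstream in lower case, which in Rpl7a overlaps the one in capitals. The letters are a description of the windows and not evidence of regulation. The median log2 fold change in EXT vs. TA was 0.27 for the 32 genes with CTTTC and 0.29 for the 27 without it.

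The deposited values were log2 CPM (reads scaled to library size), from which read counts were recovered. Effective library sizes ran from 12802113 to 20440351 reads, with medians of 18015590 in TA, 16977973 in FC and 15412341 in EXT mice. No ribosomal protein gene had fewer than 116 reads in any mouse, and the highest count was 23863. Counting error was thus small beside the spread between mice for most genes. For the lowest, Rpl13a and Rpl23a, it could be of like size within a batch. All 80 genes lay above the authors' minimum in every sample, and no filter was added.

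The 80 genes together took 1.74% ± 0.64 (SD, n = 44) of the reads in the table. Reads of 60S genes made up 60.5% of this on average, with 58.4% in the lowest and 62.7% in the highest mouse. The subunits therefore kept nearly the same proportion while their common level differed several-fold between mice. The mean log2 value of single genes ran from 3.81 for Rpl13a to 9.23, and only Rpl13a and Rpl23a lay under 5.

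To compare genes with each other, reads were divided by the exon length of each gene in GENCODE release M21 and set against the median ribosomal protein gene of the same mouse. On this scale of reads per length, 55 of the 80 genes lay within 2-fold of the median gene. Rplp1, a protein of the flexible stalk that recruits elongation factors, was at 5.37 ± 0.83 (SD, n = 44) times the median gene, Rpl36 at 4.69 ± 0.53 times and Rpl41, the shortest of the proteins, at 4.38 ± 1.22 times. The lowest were Rpl13a at 0.07 ± 0.03 times, Rps15a at 0.16 ± 0.02 times and Rpl22 at 0.17 ± 0.05 times. Exon length includes exons of every annotated transcript, and this touched the lowest and the highest genes. By the length of the principal coding transcript, Rps15a was at 0.63 and Rpl22 at 0.43 times the median gene. Rpl13a stayed lowest at 0.06 times, followed by Rps20 at 0.11 and Rpl23a at 0.12 times. Rplp1 came to 2.19 and Rpl36 to 1.91 times, while Rpl41 was highest at 4.82 times. Ribosomal protein genes have many processed pseudogenes in the mouse genome, and how reads shared with such copies were counted is not given in the sources used here, so low values such as that of Rpl13a are uncertain.

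The largest differences between mice were between batches. Reads in the 80 genes took 0.99% ± 0.15 (SD, n = 11) of the table in batch 1, 1.78% ± 0.39 (n = 10) in batch 2, 2.56% ± 0.73 (n = 5) in batch 3 and 1.89% ± 0.36 (n = 17) in batch 5. The single mouse of batch 4 was at 2.97%. The 11 mice of batch 1, of all 3 groups, lay between 0.82% and 1.23%, below the 27 mice of batches 2 and 5, whose lowest was 1.51%. In the plot of reads by mouse the batches stand apart more clearly than the groups.

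**Figure D1:**
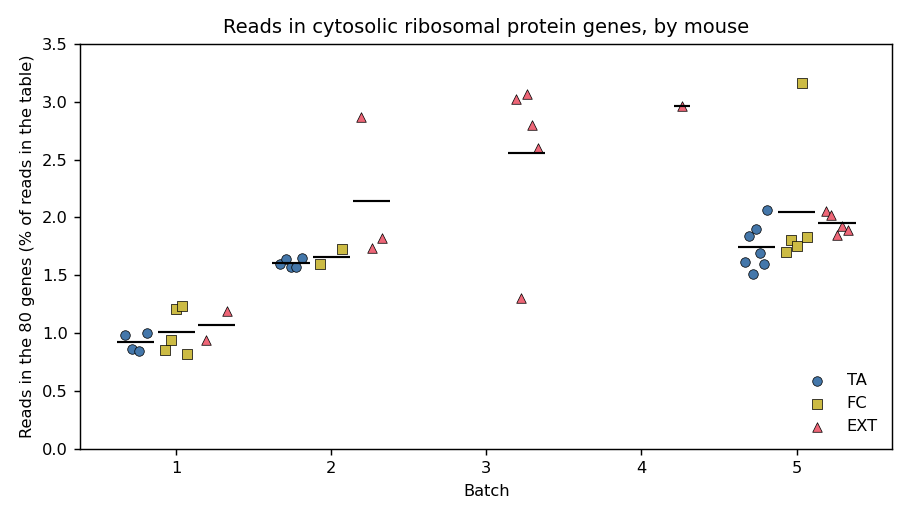
Reads in the 80 cytosolic ribosomal protein genes as a percentage of the reads in the table, for each mouse, by batch (x axis) and group (blue circles TA, yellow squares FC, red triangles EXT), with horizontal bars at the mean of each group in each batch. All 11 mice of batch 1 lie at or below 1.23%, and 7 mice lie at 2.60% or above, 6 of them EXT mice.

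With group and sex in the model (limma, Benjamini-Hochberg adjustment over 8203 genes), 72 of the 80 genes were FDR-significantly higher in batch 5 than in batch 1 and 3 were lower, with a median log2 fold change of 1.18. Over all genes 53.4% were FDR-significant in either direction and 25.5% were higher, with a median of -0.03. Rps29, a zinc-binding protein of the small subunit, rose by 2.55 ± 0.17 (log2 fold change ± standard error, adjusted p = 4.43e-16), Rps28 by 2.53 ± 0.18 and Rps27l by 2.35 ± 0.24. In batch 1, Rps28 lay between 3.78 and 5.45 on the log2 scale over the 3 groups, and in batch 5 between 6.45 and 7.90, with no overlap.

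The batch difference was unequal among genes of the same complex, and it was larger where the coding region was shorter. The 27 genes with the shortest coding regions (75 to 396 bases) had a median log2 fold change of 1.64, the 26 of middle length (399 to 564 bases) 1.27 and the 26 longest (576 to 1257 bases) 0.80. Rps4l has no annotated coding region and is not in these groups. Of the other 314 genes of the table with transcripts of at most 1000 bases, 249 were FDR-significantly higher and 6 lower in batch 5, with a median of 0.83. The 3 genes that were lower in batch 5 were among the longest 26, and Rps9 and Rps3 are named for their values. Rpl10a was lower by 0.53 on the log2 scale (log2 fold change -0.53 ± 0.14, adjusted p = 0.00188), Rps9, a protein of the 40S subunit, by 0.34 (-0.34 ± 0.11) and Rps3, which lines the mRNA entry channel of the 40S subunit, by 0.32 (-0.32 ± 0.12). In 5 genes the batch difference did not pass the threshold, which were Rpl13 (0.14 ± 0.17), Rpl13a (0.10 ± 0.15), Rpl36al (0.11 ± 0.12), Rpl7 (0.12 ± 0.12) and Rpl5 (0.23 ± 0.10). Libraries were made with a full-length cDNA kit followed by tagmentation, per the labels, and whether batches differed in that step was not tested.

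**Figure D2:**
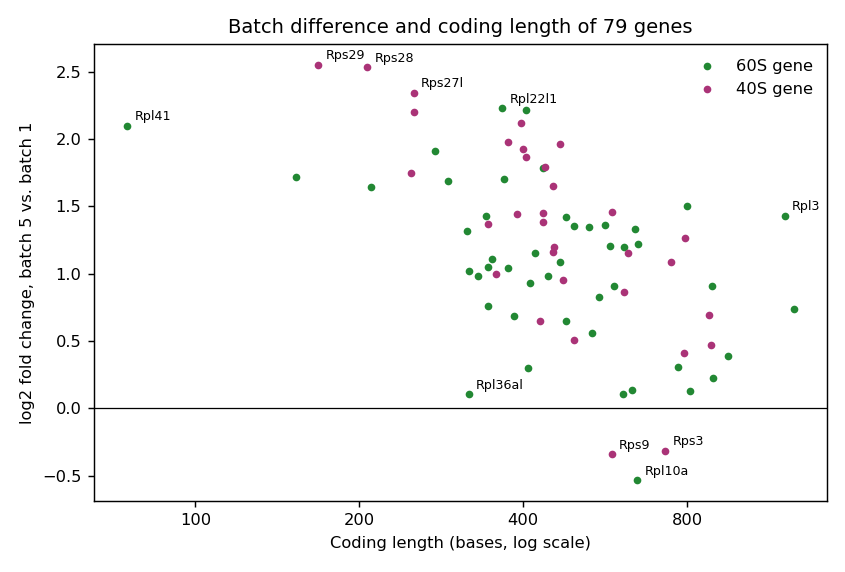
Log2 fold change between batch 5 and batch 1 (y axis, group and sex in the model) against coding length in bases (x axis, log scale) for the 79 ribosomal protein genes with an annotated coding region, 60S genes in green and 40S genes in purple. The shortest genes lie highest (Rps29 at 2.55), and Rpl10a (-0.53), Rps9 (-0.34) and Rps3 (-0.32) lie below 0.

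In the reads of ribosomal protein genes, 7 libraries stood above all others, from 2.60% to 3.16%, and the next mouse was at 2.07%. They were EXT mice 21 (batch 2), 22, 25, 44 and 53 (batch 3) and 55 (batch 4), and FC mouse 47 (batch 5). The 6 EXT mice were also the only mice with over 2% of reads from the 8 mitochondrially encoded genes of the table, at 2.44% to 4.16%, against 0.01% to 1.05% in the other 38 mice. Malat1, a nuclear RNA, took 0.11% to 0.30% of their reads and at most 0.06% in the others. Crh, the gene whose promoter drives Cre, lay between 3.15 and 4.56 on the log2 scale in these 6 mice and between 3.97 and 7.17 in the others. The GABA and CeA neuron genes (10 of 11 listed in the table) took 0.17% to 0.31% of reads in the 6 mice, below the 0.35% to 0.93% of the others. Reads in the 11 of 12 oligodendrocyte genes took 0.29% to 1.34% in the 6 mice (median 0.72%) and 0.16% to 1.84% in the others (median 0.36%), and the 10 astrocyte genes 0.21% to 0.27% (median 0.24%) and 0.07% to 0.38% (median 0.17%). The medians were higher in the 6 mice and the ranges overlapped, and the part of these genes in the ribosomal protein levels was not tested. In mouse 47, Crh was at 4.08, within the range of the 6 mice and the lowest of the FC mice, while mitochondrial reads took 0.23%, Malat1 0.01% and GABA and CeA neuron genes 0.45%.

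In the 6 mice, 75 of the 80 genes had a higher median level than in the other 38 mice. The median difference was 0.77 on the log2 scale, and at 11 genes all 6 mice lay above all 38. The same counts were not made over all genes, so they cannot show whether the 80 genes stand out here. The difference was unequal among genes. Rps2, named for its value, had a median of 9.37 in the 6 mice and 7.29 in the others, and Rpsa, the laminin receptor precursor that sits on the 40S subunit, 9.72 and 7.90, without overlap. Rps4l had a median of 4.47 in the 6 mice and 5.96 in the others, and Rpl36al 6.82 and 7.28. These mice were set apart by their mitochondrial reads and not by a label, so no test was made. The part of their mitochondrial reads in these levels was not tested.

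**Figure D3:**
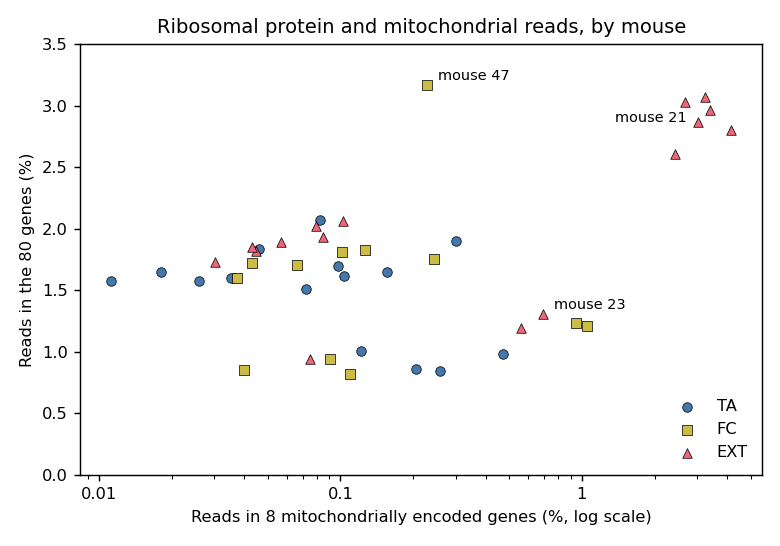
Reads in the 80 ribosomal protein genes (y axis, % of reads in the table) against reads in the 8 mitochondrially encoded genes (x axis, %, log scale), for each mouse, with mice 21, 23 and 47 marked. The 6 EXT mice at the upper right have over 2% mitochondrial reads and 2.60% to 3.07% ribosomal protein reads, and FC mouse 47 is as high in ribosomal protein reads with 0.23% mitochondrial reads.

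EXT vs. TA asked which ribosome-bound mRNAs differed after extinction. Reads in the 80 genes took 0.84% to 2.07% in TA mice (median 1.6%), and 0.94% to 3.07% in EXT mice (median 1.97%). The group means were 1.5% ± 0.37 (SD, n = 16) and 2.13% ± 0.68 (n = 16), and the ranges overlapped. With batch as categories and sex in the model, 78 of the 80 genes had a log2 fold change above 0. The median was 0.28 and the range from -0.23 to 0.50. Over all genes 51.5% were higher, and the median was 0.01. None of the 80 passed an FDR of 0.05 in limma, where 0.0244% of all genes did, and the smallest adjusted p was 0.143. At an unadjusted p under 0.05, 56 of the 80 differed (background 21.1%), all of them higher in EXT mice (background 10.2%).

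The 60S and 40S genes gave nearly the same values, with medians of 0.28 (46 of 47 higher) and 0.29 (32 of 33 higher). The call at FDR moved with batch 3, which has no TA mouse and enters only through the spread and the sex term. Without mouse 23, the lowest mouse of batch 3 at 1.31%, 37 of the 80 genes passed (background 5.75%), and with batches 1, 2 and 5 alone 34 passed (background 4.99%), with a median of 0.27. With batch as a number, a coding that treats the batch numbers as a scale, 54 of the 80 genes passed, all of them higher (background 21.4%, and 10.4% higher), with a median of 0.48. That coding set the EXT mice of batches 3 and 4, which hold 5 of the 6 mice with high mitochondrial reads, against TA mice of other batches. Without those 6 mice, 0 of the 80 passed under that coding (background 0%) and the median was 0.16, while with batch as categories 10 passed (background 1.56%) and the median was 0.22. Without mice 21 and 47, 0 passed with batch as categories (background 0%), 38 were higher at an unadjusted p under 0.05 (background 17.6% in either direction) and the median was 0.22. Library size also moved with the groups, and with log2 library size in the model the median was 0.13 and 0 of the 80 genes had an unadjusted p under 0.05 (background 4.68%).

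The direction was seen in each batch that held both groups. EXT mice had the higher mean in 74 of the 80 genes in batch 1, in 77 in batch 2 and in 77 in batch 5, with median differences of 0.27, 0.43 and 0.18 on the log2 scale. Over all genes 53.0%, 47.4% and 50.4% were higher. The 80 genes moved together from mouse to mouse, so these counts are not 80 separate observations. Only 2 EXT mice entered in batch 1 and 3 in batch 2. In batch 2 without mouse 21, 72 genes were higher and the median was 0.21. All EXT mice lay above all TA mice at 33 genes in batch 1 (11.0% of all genes did so), at 41 in batch 2 (8.66%) and at 0 in batch 5 (0.317%), where the groups were largest.

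**Figure D4:**
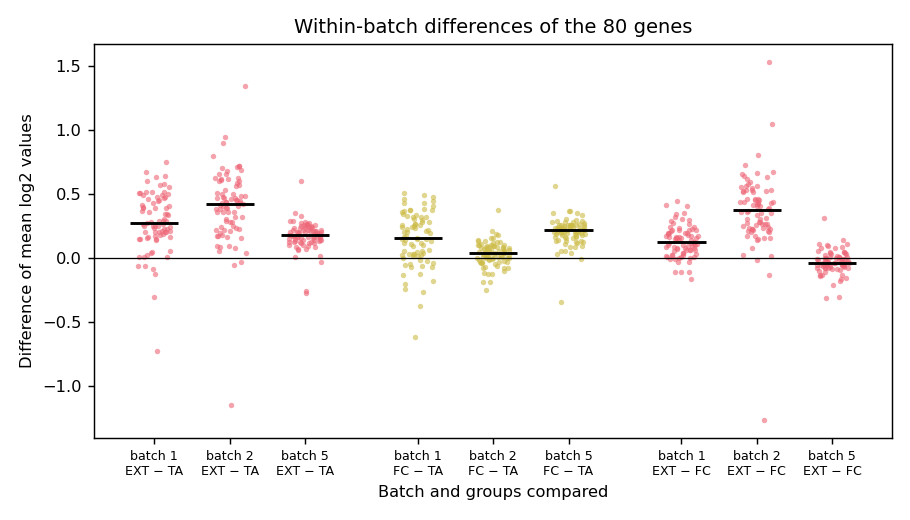
Differences between group means on the log2 scale (y axis) for each of the 80 ribosomal protein genes (points, spread sideways at random) within batches 1, 2 and 5, for EXT minus TA, FC minus TA and EXT minus FC, with black bars at the median gene. The medians of EXT minus TA are 0.27, 0.43 and 0.18, and that of EXT minus FC in batch 5 is -0.04.

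Rps29 (chr12:69157722-69159186, minus strand, GRCm38) was among the genes with the smallest p. Its log2 values ran from 5.63 to 8.74 in TA mice (median 8.12), from 5.26 to 9.31 in FC mice (median 8.08) and from 6.12 to 9.36 in EXT mice (median 8.69). The groups overlapped widely, since the batch 1 mice of each group made up the low end. In EXT vs. TA its log2 fold change was 0.47 ± 0.14 (adjusted p = 0.143), with differences of 0.61, 0.72 and 0.24 in batches 1, 2 and 5. It was thus higher in EXT mice in every batch with both groups, and most in the batch that holds mouse 21.

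Others with small p had log2 fold changes of 0.37 ± 0.12 (Rps21), 0.36 ± 0.11 (Rpl30), 0.35 ± 0.11 (Rpl23a), 0.28 ± 0.09 (Rpl29), 0.46 ± 0.15 (Rps28) and 0.39 ± 0.12 (Rps14, a 40S protein lost in a human anaemia with deletion of its region), all at an adjusted p of 0.143. Rpl30 and Rps21 differed in each batch by like amounts, at 0.30, 0.46 and 0.29 for Rpl30 and 0.35, 0.43 and 0.33 for Rps21. Rps12, at 0.50 ± 0.16, had the highest fold change of the 80 and is named for its value.

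**Figure D5:**
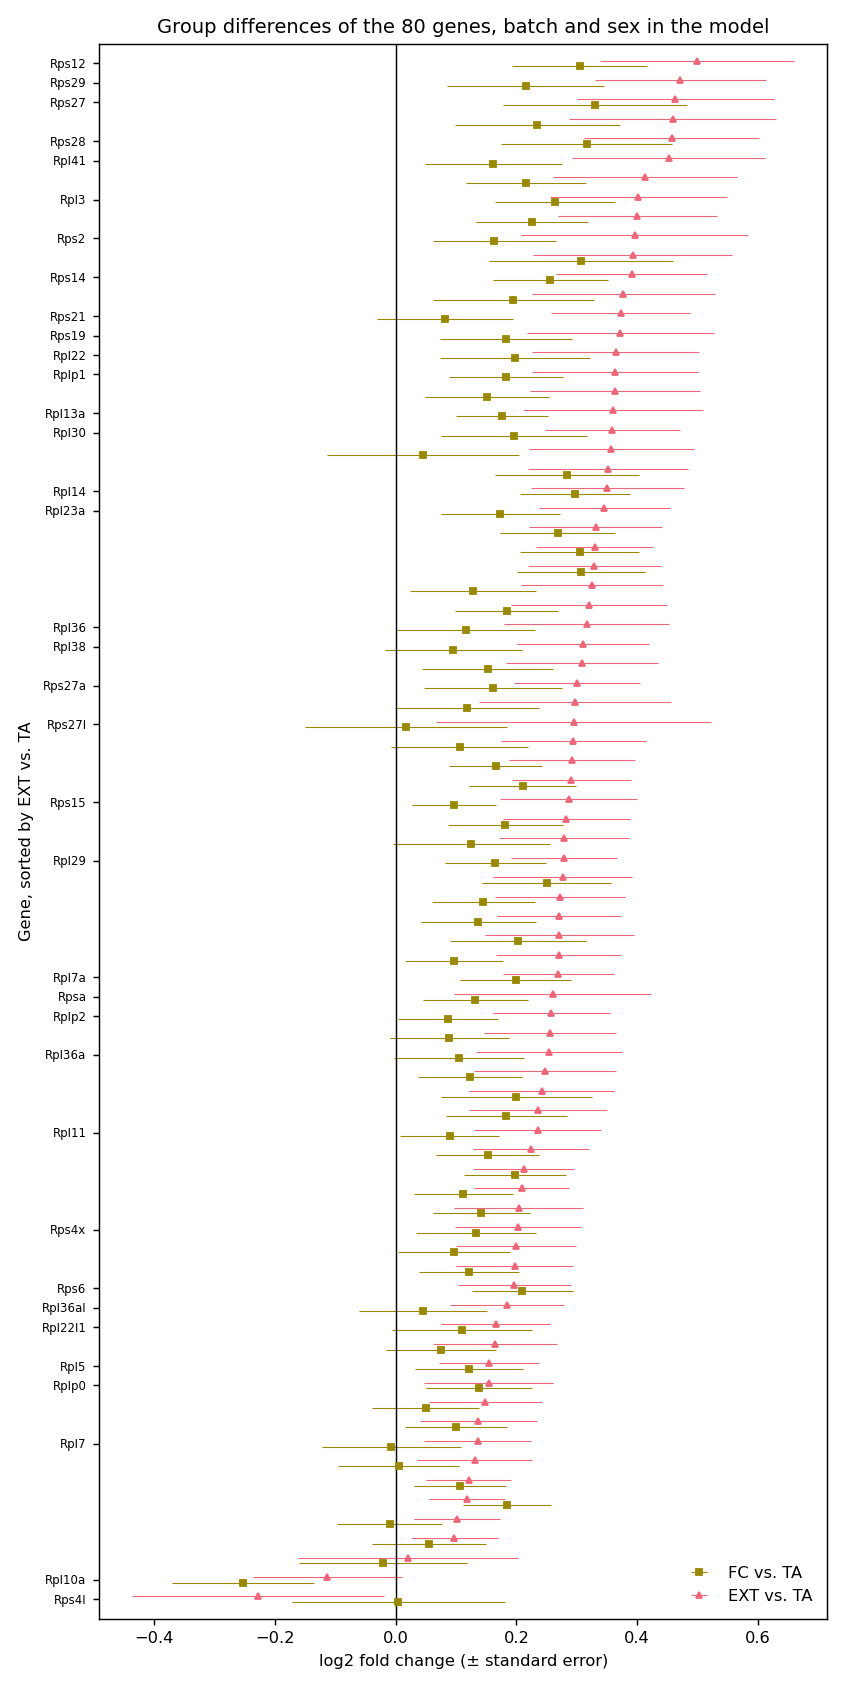
Log2 fold changes (x axis, with standard errors as bars) of the 80 ribosomal protein genes (y axis, sorted by EXT vs. TA, with some of the genes described in the text labelled) for EXT vs. TA (red triangles) and FC vs. TA (yellow squares), with batch and sex in the model. In EXT vs. TA 78 genes lie above 0, and Rpl10a (-0.11) and Rps4l (-0.23) lie below it.

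Among the stalk proteins, which bind elongation factors, Rplp0 had a log2 fold change of 0.15 ± 0.11, Rplp1 of 0.36 ± 0.14 and Rplp2 of 0.26 ± 0.10. Rplp0, often used as a reference gene in quantitative PCR, lay between 7.30 and 8.22 in TA mice (median 8.04) and between 7.76 and 9.07 in EXT mice (median 8.14). Rps6 is a 40S protein whose form phosphorylated by S6 kinases is used as a marker of neuronal activity, and phosphorylation was not measured here. The Rps6 mRNA had 0.20 ± 0.09 in EXT vs. TA and 0.21 ± 0.08 in FC vs. TA. Its log2 values ran from 6.67 to 8.27 in TA mice (median 7.99), 6.97 to 8.92 in FC mice (median 8.02) and 7.14 to 8.76 in EXT mice (median 8.24).

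Rpl5 and Rpl11 form, with 5S rRNA, the particle that binds Mdm2 and stabilises p53. Their log2 fold changes in EXT vs. TA were 0.15 ± 0.08 and 0.24 ± 0.10. Rps19, mutated in Diamond-Blackfan anaemia, had 0.37 ± 0.16, Rpl38, needed for translation of Hox mRNAs in the embryo, 0.31 ± 0.11, and Rps27a, made as a fusion with ubiquitin, 0.30 ± 0.10. Rpl3, which reaches to the peptidyl transferase centre, had 0.40 ± 0.15, Rpl7 had 0.14 ± 0.09 and Rpl7a 0.27 ± 0.09. None of these passed an FDR of 0.05.

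Rpsa lay between 7.33 and 8.21 in TA mice (median 7.87), between 7.39 and 8.67 in FC mice (median 8.00) and between 7.72 and 9.91 in EXT mice (median 8.15). The upper end in EXT mice was made up of the 6 mice with high mitochondrial reads, which lay at 9.49 or above, against 8.67 at most in the others. Its log2 fold change was 0.26 ± 0.16 with batch as categories and 0.79 ± 0.22 (adjusted p = 0.0169) with batch as a number.

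Rpl10a (chr17:28328471-28331033, plus strand), the gene of the tagged protein, went against the others. It ran from 6.66 to 8.16 in TA mice (median 6.92), from 6.49 to 7.82 in FC mice (median 6.74) and from 6.21 to 7.60 in EXT mice (median 6.97). The groups overlapped, and the high TA values were the 4 mice of batch 1, between 7.41 and 8.16. Its log2 fold change was -0.11 ± 0.12 in EXT vs. TA and -0.25 ± 0.12 in FC vs. TA (unadjusted p = 0.0404, adjusted p = 0.275). EXT minus TA was -0.73 in batch 1, 0.09 in batch 2 and 0.02 in batch 5. FC minus TA was -0.62, -0.19 and -0.01, and in batch 2 the 2 FC mice lay below all 5 TA mice. Without batch 1 the fold change in EXT vs. TA was 0.05. All mice carry the eGFP-L10a allele, and reads of that transgene and of the native gene cannot be told apart in these counts.

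Rps4l (chr6:148354656-148355598, plus strand), annotated as a transcribed processed pseudogene, had the lowest fold change, -0.23 ± 0.21. It ran from 4.16 to 6.76 in TA mice (median 6.06), from 4.30 to 6.60 in FC mice (median 5.67) and from 4.05 to 6.24 in EXT mice (median 5.39). Its batches disagreed, with EXT minus TA at 0.64 in batch 1, -1.15 in batch 2 and -0.03 in batch 5. Its X-linked relative Rps4x had a log2 fold change of 0.20 ± 0.10. The level of Rps4l relative to Rps4x, a difference of log2 values, was -1.6 ± 0.58 (SD, n = 16) in TA, -1.87 ± 0.59 (n = 12) in FC and -2.51 ± 1.08 (n = 16) in EXT mice. Because the copies are alike in sequence, reads may be divided between them in ways that depend on the counting.

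The other pairs of paralogs did not keep a fixed proportion either. Rpl22l1, an alternative to Rpl22 in the large subunit, had a log2 value 0.89 ± 0.58 (SD, n = 11) lower than Rpl22 in batch 1 (mean difference -0.89) and was higher in batch 2 by 0.60 ± 0.41 (n = 10) and in batch 5 by 0.60 ± 0.21 (n = 17). In EXT vs. TA the log2 fold changes were 0.36 ± 0.14 for Rpl22 and 0.17 ± 0.09 for Rpl22l1. Rps27l, a p53 target, had 0.29 ± 0.23 and Rps27 0.46 ± 0.16. For Rps27l the EXT minus TA difference was 0.01 in batch 1, 1.35 in batch 2 and -0.27 in batch 5, so its value rests on batch 2. Rpl36a had 0.25 ± 0.12 and Rpl36al, an intron-poor copy, 0.18 ± 0.09.

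FC vs. TA asked what differed soon after conditioning. Reads in the 80 genes took 0.82% to 3.16% in FC mice, where the median was 1.65% and the mean 1.55% ± 0.64 (SD, n = 12). With batch as categories and sex in the model, 76 of the 80 genes had a log2 fold change above 0 (49% of all genes did), with a median of 0.15. Without that adjustment, the FC mean of many of the 80 genes lay below the TA mean. In limma 0 passed an FDR of 0.05, as for all genes (0%). At an unadjusted p under 0.05, 22 of the 80 differed (background 16.8%), 21 of them higher (background 8.61%) and Rpl10a lower. The TA mice are the same as in EXT vs. TA, so the fold changes in the plot of the 80 genes share their controls.

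Genes with small p in FC vs. TA included Rpl14 (0.30 ± 0.09, adjusted p = 0.133), Rps24 (0.31 ± 0.11) and Rps25 (0.27 ± 0.10), a 40S protein used by viral internal ribosome entry sites. Rpl14, of the 60S subunit, ran from 6.58 to 8.42 in TA mice (median 8.14) and from 7.03 to 9.16 in FC mice (median 8.17), so the medians lay close and the ranges overlapped. Mouse 47, at 3.16% of reads, weighed on this comparison. Without mice 21 and 47 the median was 0.07, 68 genes were higher, and at an unadjusted p under 0.05 9 were higher and 1 lower, a share of the 80 close to the background of 13.1%. Within batches the median differences were 0.16, 0.04 and 0.22 in batches 1, 2 and 5, and 0.05 in batch 5 without mouse 47. With batch as a number the median was 0.07, and 0 of the 80 genes had an unadjusted p under 0.05 (background 10.4%).

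EXT vs. FC compared extinction with conditioning. With batch as categories and sex in the model, 77 of the 80 genes had a log2 fold change above 0 (53.2% of all genes), with a median of 0.10. This median was 0.06 without mouse 21 and 0.19 without mouse 47. In limma 0 passed an FDR of 0.05 (0% of all genes) and 0 had an unadjusted p under 0.05, where 4.19% of all genes did. The smallest p were those of Rps21 (0.27 ± 0.17), Rps15 (0.20 ± 0.14), Rplp2 (0.16 ± 0.12) and Rpl29 (0.15 ± 0.12), each at an adjusted p of 0.975. Within batches 1, 2 and 5 the median differences were 0.12, 0.37 and -0.04. Without mouse 21 that of batch 2 was 0.18, and without mouse 47 that of batch 5 was 0.13. With log2 library size in the model the median was -0.13 and 77 genes were lower in EXT mice. With batch as a number, most fold changes were larger, while Rps4l, Rpl36al and Rpl27 were below 0. That coding set the EXT mice of batches 3 and 4 against FC mice of other batches. Rps21 was then at 0.63 ± 0.21 and Rps12 at 0.84 ± 0.28, and the smallest adjusted p in limma was 0.219. Rps10, at rank 50 of the 80 genes by p, had an unadjusted p of 0.0478. The share of all genes under that coding is not given here.

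The sexes were also fitted apart. In males the median log2 fold change in EXT vs. TA was 0.16, with 30 of 80 genes at an unadjusted p under 0.05 (background 12.5%), and in females 0.43, with 29 (background 13.8%). Mouse 21 is a female, and the only other female of batch 2 is TA mouse 1. No male EXT mouse is in batch 1, so the medians of the sexes rest on different batches. The difference between the sexes, tested as an interaction with common batch terms, had a median of -0.03 and 0 genes at an unadjusted p under 0.05 (background 6.02%). In FC vs. TA, 2 genes passed that p in males (background 13.1%, median 0.13) and 14 in females (background 14.8%, median 0.21). The interaction had 2 genes at that p (background 9.62%), Rps15 at 0.34 ± 0.12 and Rps27l at 0.71 ± 0.31, and none at FDR. Between females and males, 1 of the 80 genes had an unadjusted p under 0.05 (background 4.13%), Rpl30 at -0.26 ± 0.11, and 0 passed the FDR.

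After the mean of each group in each batch was removed, the 80 genes still moved together from mouse to mouse. The first principal component carried 76.3% of their variance, against 18.6% for all 8203 genes, and 79 of the 80 genes had the same sign on it. The mice farthest out were EXT mouse 23 at the low end and FC mouse 47 at the high end. Without mice 21, 23 and 47 the component carried 57.0% of the variance of the 80 genes and 21.1% of that of all genes. With all mice, the genes that shared least in the component were Rps4l (5.11% of its variance), Rpl36al (27.6%), Rps27l (34.5%), Rpl28 (38.4%) and Rpl6 (43.3%). The median gene had 84.0%. This list depended on the 3 mice. Without them the lowest were Rps4l (0.06%), Rpl28 (1.33%), Rpl29 (2.98%), Rps15a (7.15%) and Rplp0 (8.64%). Rpl36al and Rps27l were then at 27.7% and the median gene at 62.2%.

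Genes that work with the ribosomal proteins did not all follow them. Of 18 translation factors and other TOP mRNAs in the table (of 20 listed), 14 had a log2 fold change above 0 in EXT vs. TA. The median was 0.10, and 6 were higher at an unadjusted p under 0.05. They included Eef1b2 (0.30 ± 0.09), an elongation factor subunit, Pabpc1 (0.49 ± 0.19), the poly(A)-binding protein, and Eif3f (0.29 ± 0.12), a subunit of the initiation factor eIF3. Of 48 ribosome biogenesis genes (of 61 listed), which process rRNA and assemble subunits, 13 were higher and 35 lower with a median of -0.12, and at an unadjusted p under 0.05 4 were higher and 10 lower. Ddx10, a helicase of 40S assembly, was at -0.45 ± 0.16, Rrp9 at 0.20 ± 0.07 and Polr1d, a subunit of RNA polymerases I and III, at 0.31 ± 0.11. The 48 genes took 0.25% to 0.29% of reads in the 6 mice with high mitochondrial reads, below the 0.30% to 0.45% of the others. The part of these 6 mice in the fold changes of this list was not tested.

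Of 24 regulators of mTORC1 and TOP mRNAs (of 31 listed), 14 were higher and 10 lower with a median of 0.08, and 6 were higher and 3 lower at that p. Mlst8, a subunit of mTOR complexes, was at -0.34 ± 0.11, Lamtor5, of the complex that tethers mTORC1 to lysosomes, at 0.31 ± 0.11 and Larp4b at -0.20 ± 0.07. Mitochondrial ribosomal proteins belong to a separate ribosome. Of these 77 genes 61 were higher, with a median of 0.10, and 20 were higher and 1 lower at that p. Their lowest p were those of Mrpl33 (0.37 ± 0.09), Mrps18c (0.36 ± 0.09) and Mrpl48 (0.23 ± 0.07). Of the 314 other genes with transcripts of at most 1000 bases, 290 were higher, with a median of 0.21, and 134 were higher and 0 lower at that p. No gene of any of these lists passed an FDR of 0.05. Among the 80 genes themselves, the median in EXT vs. TA was 0.36 for the shortest 27, 0.28 for the middle 26 and 0.21 for the longest 26.

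Markers of other cell types were in the table as well. Reads in the 11 of 12 listed oligodendrocyte genes took 0.16% to 0.67% in TA, 0.19% to 1.84% in FC and 0.19% to 1.34% in EXT mice. The 10 of 10 astrocyte genes took 0.07% to 0.30%, 0.10% to 0.26% and 0.11% to 0.38%. The 4 of 12 choroid plexus genes took 0.02% to 2.80%, 0.07% to 1.87% and 0.02% to 4.97%, and the 4 of 8 glutamatergic neuron genes 0.06% to 0.13%, 0.05% to 0.11% and 0.06% to 0.14%. Of the 9 endothelial genes only Itm2a was in the table, at no more than 0.0131% of reads in any mouse. The GABA and CeA neuron genes took 0.37% to 0.79% in TA, 0.35% to 0.92% in FC and 0.17% to 0.93% in EXT mice. In EXT vs. TA, 0 astrocyte, oligodendrocyte, choroid plexus and glutamatergic genes had an unadjusted p under 0.05. Of the 10 GABA and CeA neuron genes Gad1 (-0.42 ± 0.14) and Gad2 (-0.24 ± 0.09) did, a share close to the 21.1% of all genes. No listed marker in the table was at 0 in any mouse, as only genes above a minimum in all samples were kept. Their part in the ribosomal protein values was not tested. In RNA pulled down from tissue, fewer cells of a type and less RNA per cell cannot be told apart.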

How the data were processed

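TRAP-seq libraries of 44 mice were analysed, each mouse being a sample. The submitters' processing notes name Trimmomatic 0.36, STAR, SAMtools, edgeR, limma and GRCm38, and the authors kept genes above a minimum in all samples. The deposited values are log2 CPM as voom writes them, including the columns under animal numbers recorded with the unit other. Reads were solved back from all 360932 values within 0.1 reads of a whole number (offset 0.5). Depth is thus known for each mouse.

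Groups, sex and batch came from the labels. The deposited log2 values were fitted by limma 3.58.1 (lmFit, then eBayes; R 4.3.3) with batch as categories and sex as covariates, for each pair of groups. P-values were two-sided and adjusted by Benjamini-Hochberg over 8203 genes, with an FDR threshold of 0.05. Shares of reads, levels per length and principal components were computed in Python 3.11.15 (numpy 2.4.6, pandas 2.3.3) and are descriptions without a test. Each mouse was 1 sample, and nothing in the labels links mice across groups.

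The members and gene lists were chosen with earlier results of these data known. Named members were those with a set role, those with the smallest p (8 in EXT vs. TA, 4 in each of the other pairs), those against the members' direction, the 3 highest and 3 lowest per length, the 5 with least shared variance and the 3 with the largest batch difference, and up to 3 genes of each list. Some items the rule names are not reported here. Alternatives were other codings of batch, scalings, covariates, filters, a pseudocount of 5 reads, voom weights, and leaving out mice or batches. The fits were also run on simulated data with noise drawn for each gene apart, and that outcome is not given here.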

Additional observations from a re-analysis of the deposited data

Results flagged for a closer look

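Sets of 4 to 10 mice were formed by group with sex or batch, 13 in all. In 3 of them 1 mouse lay far from the rest in the percentage of reads in ribosomal protein genes. This was judged by Dixon's ratio at the 95% level, which chance alone exceeds in about 1 of 20 independent sets. The same mice enter sets by sex and sets by batch, so 3 of 13 cannot be set against that rate. FC mouse 47 was at 3.16% among the FC mice of batch 5 and EXT mouse 23 at 1.31% among the EXT mice of batch 3. TA mouse 35 was at 1.00% among the male TA mice, of which it was the only batch 1 mouse. The TA mice of batch 1 ran from 0.84% to 1.00%, so its distance from the other males cannot be told apart from the batch difference.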

How the results depend on the processing

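In EXT vs. TA, the count of ribosomal protein genes past an FDR of 0.05 (0 with batch as categories) was 54 with batch as a number (21.4% of all genes passed), 46 with no batch term (19.7%) and 34 with batches 1, 2 and 5 only (4.99%). It was 10 without mice 21, 22, 25, 44, 53 and 55 (1.56%), and 33 with batch as a number without mice 21 and 47 (13.4%), both chosen after seeing the data, as were the other fits without these mice and the one with mitochondrial reads as a covariate. Leaving out each mouse in turn gave counts of 0 to 37, the highest without EXT mouse 23 (5.75%). The EXT vs. FC median (0.10) was 0.49 with no batch term. Rpl36al in EXT vs. TA went below 0 with batch as a number (-0.10), with no batch term (-0.10) and with batch as a number without mice 21 and 47 (-0.092). Rpl10a was at 0.047 without batch 1, and without batch 2 Rps27l was at -0.18 and Rps4l at 0.18. The cause was not tested. Settings other than leaving out single mice gave 126 further pairs of a summary value and a setting that counted as the same. These stayed on the same side of the threshold, within 1.5 times as counts or within 1 SD. The SD was that between mice of the mean over the ribosomal protein genes. It was 0.25 for EXT vs. TA, 0.23 for FC vs. TA and 0.34 for EXT vs. FC. For FC vs. TA and EXT vs. FC it was larger than the median itself, so a median could change sign and still count. The EXT vs. FC median did so, turning to -0.13 with log2 library size in the model. The tally therefore cannot show that the medians were steady. In FC vs. TA, the count at an unadjusted p under 0.05 ran from 10 without mouse 47 (13.1% of all genes) to 32 without mouse 49 (17.5%). Batches 3 and 4 hold EXT mice only, so batch and group cannot be told apart there. No paired analysis was possible because animal numbers are not shared between groups.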
